A study of Mus musculus with 2 samples.

Results

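The cells described here are 832 CD8 T cells that held almost no transcripts of 13 cell cycle genes, out of 5884 cell barcodes in the deposited single-cell matrices. CD8 T cells are the cytotoxic lymphocytes of the immune system, and OT-I cells carry a transgenic receptor for a peptide of ovalbumin. Both libraries came from OT-I mice aged 8 to 12 weeks. Cells were activated for 48 h with the SIINFEKL peptide and then kept for 20 h with 100 U/ml of interleukin 2, at 11 mM glucose for the library called control and at 1 mM for the one called TGR (transient glucose restriction). Each condition is 1 library, and the number of mice behind it and whether glucose was returned before capture are not given in the sources used here. No p-value can be given with 1 library per condition. Intervals below are exact 95% intervals of how a gene's UMIs (counted molecules) split between the libraries, or of a share of cells, and cover counting error only.

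A cell was kept with at least 3000 UMIs and under 10% of them from mitochondrially encoded genes, which left 2229 of 3336 control barcodes and 2443 of 2548 TGR barcodes. The control library held 15103830 UMIs in all and the TGR library 19702050. Cells were then chosen by their measured UMIs of 13 genes. A kept cell met the rule when it held 0 UMIs of 7 mitotic genes (Mki67, Top2a, Cenpf, Ccnb1, Cdc20, Plk1 and Hmmr) and at most 2 UMIs in all of 6 S-phase genes (Mcm3, Mcm5, Mcm6, Ung, Cdc6 and Slbp). The rule found 70 control cells and 762 TGR cells. They are called cycle-low cells here, because most of the control cells among them still held other cycle transcripts, as described below. Of 11 barcodes found in both libraries, 3 belonged to cycle-low TGR cells and 0 to cycle-low control cells, and none met the rule in both.

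Activated CD8 T cells divide several times a day, and each division needs bursts of transcripts for DNA replication and then for mitosis. A cell between divisions, or one that has left the cycle, holds few of either. Resting T cells also express brakes on growth and division, many of them under FOXO transcription factors, among them Btg1, an antiproliferative protein, Pik3ip1, an inhibitor of PI3 kinase, and Il7r, the receptor chain for the survival cytokine interleukin 7. Glucose feeds glycolysis and protein glycosylation in these cells, and shortage of nutrients is sensed in part through the transcription factor ATF4.

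Cycle-low cells made up 3.14% of the kept control cells (70 of 2229, interval 2.46% to 3.95%). They made up 31.2% of the kept TGR cells (762 of 2443, interval 29.4% to 33.1%). The rule depends on depth, because a deeper cell is more likely to show a cycle transcript, and cycle-low cells had a median of 3628.5 UMIs in control and 4922 in TGR. With every kept cell thinned to 3000 UMIs before the rule was applied, the shares were 7.13% and 43.2%. Within the band from 3000 to below 4000 UMIs the shares were 8.42% of 641 control cells and 66.6% of 293 TGR cells. At 6000 UMIs or more, 0 of 751 control cells met the rule, which allows a share of up to 0.490%, against 15.8% of 1356 TGR cells. The TGR share was the higher one in each band.

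**Figure D1:**
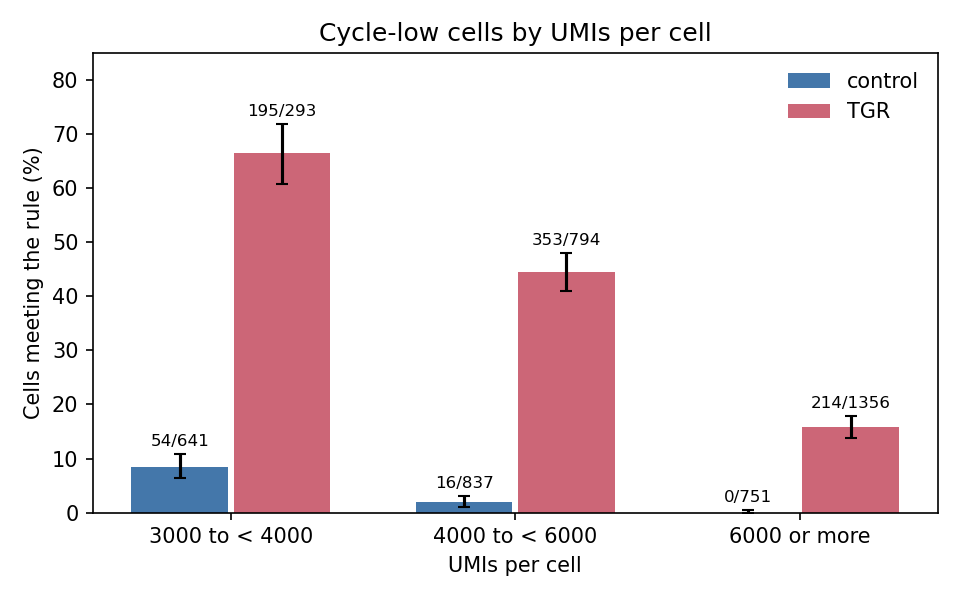
Share of kept cells that met the rule (y axis, percent) by UMIs per cell (x axis), with 95% exact binomial intervals and the cells counted above each bar. The TGR library was the higher in each band, and the share was smaller in deeper cells of both libraries, from 66.6% to 15.8% in TGR.

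The edge of the rule was as follows. Of the cycle-low control cells, 17 held 0 S-phase UMIs, 19 held 1 and 34 held 2, and 28 control cells just outside had no mitotic UMI but 3 S-phase UMIs. Of the cycle-low TGR cells, 458 held 0, 205 held 1 and 99 held 2, with 55 cells just outside at 3. A single mitotic UMI kept out a further 94 control cells and 167 TGR cells that had at most 2 S-phase UMIs. The control cells thus crowded against the limit, whereas most TGR cells lay well inside it.

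Cycle genes that the rule did not use showed the same contrast. A list of 51 other G2/M genes and 44 other S-phase genes took a median of 0.841% of the UMIs of a cycle-low control cell, against 1.08% in the other kept control cells. In cycle-low TGR cells the median was 0.162%, against 0.625% in the other kept TGR cells. Of the 70 control cells, 48 held 0.6% or more and 22 held less, while 760 of the 762 TGR cells held less. The limit of 0.6% was set after seeing these values, and 11 control and 12 TGR cells lay within 0.15 percentage points of it. The name non-cycling therefore goes against the data for 48 of the 70 control cells. Comparisons are given for all cycle-low cells and, for most genes and lists, beside them for a narrower set, called the strict set here. It holds the 22 control cells under 0.6% and 220 TGR cells under 0.6%, 10 for each control cell at like depth. Even there the median of these transcripts was 0.322% in control and 0.169% in TGR cells. A closer match, of 21 cells per library paired on these transcripts as well as on UMIs, brought the medians to 0.320% and 0.312%. With fewer TGR cells its intervals are also wider. Among genes given with values below whose strict-set interval excluded 0, that of the closer match held 0 for Atf5, Birc5, Bnip3l, Cd7, Cd160, Cdkn1a, Dbi, Gapdh, Hmgb2, Jund, Mdh2, Mt1, Pgk1, S1pr1, Slc3a2, Snhg6, Stmn1 and Trib3.

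**Figure D2:**
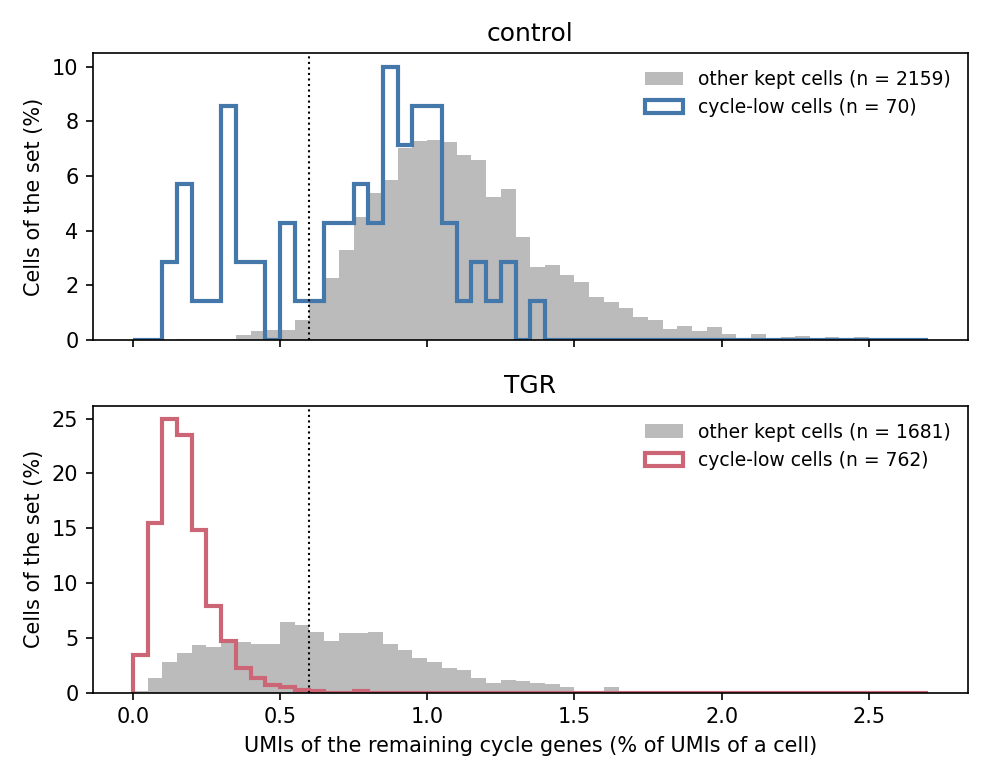
Percent of a cell's UMIs in the other G2/M and S-phase genes (x axis) for cycle-low cells (line) and other kept cells (grey), as percent of the cells of each set (y axis); the dotted line marks 0.6%. Cycle-low control cells spread from 0.146% to 1.38% with 48 of 70 at or above the line, while 760 of 762 cycle-low TGR cells lay below it.

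The cells were T cells by their markers. Of 10 CD8 T cell markers, 7 were in the files, and their summed level was 2960 CPM (counts per 1e6 UMIs) in cycle-low control cells and 2674 CPM in cycle-low TGR cells. At least 2 UMIs of these markers were present in 70 of 70 control and 760 of 762 TGR cells. The 8 B cell markers in the files summed to 26.7 CPM in control cells and 24.0 CPM in TGR cells, mainly from Cd79b and Cd74, with Pax5 at 0 in both. The 9 dendritic cell markers summed to 130 CPM and 107 CPM, mainly from Cst3 and H2-Ab1, with Xcr1 and Clec9a at 0 in both. The macrophage markers Lyz2, Adgre1 and C1qa were also at 0 in both libraries' cycle-low cells. The 12 macrophage or monocyte markers summed to 38.2 CPM in control cells and 67.0 CPM in TGR cells, with Ctss the main source. The 12 markers of NK or innate-like lymphocytes summed to 138 CPM and 210 CPM, and Cd4 was at 0 in both. Leaving out the 13 control and 294 TGR cells with 2 or more UMIs of such a class gave 196 genes higher and 360 lower, near the counts given next.

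To compare the conditions, each of the 70 control cells was paired with a TGR cell of like UMI count, giving 261814 UMIs from control and 264557 from TGR cells. Genes reaching 25 CPM on either side were scored, 4203 in all. At least 2-fold higher in TGR with an interval excluding 1 were 203 genes (4.83% of those scored), and at least 2-fold lower were 419 (9.97%). At the 1.5-fold limit used for gene lists below, 261 genes (6.21%) were higher and 580 (13.8%) lower. The median log2 ratio of TGR over control over all scored genes was −0.12. Of the genes past 2-fold, 32.6% were higher in TGR, and with totals counted without ribosomal protein and mitochondrially encoded genes 51.4% were, since that scaling moves every log2 ratio up by 0.18. In the strict set, 3856 genes were scored, of which 98 (2.54%) were higher by 2-fold or more and 171 (4.43%) lower, with 121 (3.14%) and 236 (6.12%) at 1.5-fold and a median log2 ratio of −0.04. The kept cells outside the rule, matched likewise between the libraries at 1276 per library, gave 127 of 4058 genes higher (3.13%) and 363 lower (8.95%), or 344 (8.48%) and 1083 (26.7%) at 1.5-fold. They were not matched to the cycle-low cells. Their median UMIs were 6380 in control and 6434.5 in TGR, against 3628.5 and 3634.5 in the matched cycle-low cells. Wherever the 2 kinds of cells are compared below, depth and cycle transcripts cannot be told apart.

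Ribosomal protein transcripts took a median of 41.7% of the UMIs in cycle-low control cells and 49.3% in the matched TGR cells. In the strict set the medians were 48.8% and 49.7%, and the 48 control cells at or above 0.6% stood at 40.5%. The control library's cells outside the rule had 40.4% and those of TGR 49.0%. The 22 strict control cells thus lay near the TGR cells on this measure and apart from the rest of their own library. What part this had in the ratios below was not tested.

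Genes of the integrated stress response were higher in cycle-low TGR cells. Ddit3, the gene of the stress-induced factor CHOP, stood at 3.82 CPM in control cells (1 UMI) and 261 CPM in TGR cells (69 UMIs), a log2 ratio of 5.52 with an interval of 3.57 to 11.42. Trib3, a pseudokinase induced through ATF4 and CHOP, stood at 11.5 CPM (3 UMIs) and 132 CPM (35 UMIs), a log2 ratio of 3.33 (1.86 to 5.87). Atf4 itself, the central factor of the response, was at 87.9 CPM in control cells and 223 CPM in TGR cells, a log2 ratio of 1.33 (0.63 to 2.11). Atf5, a related factor, was at 7.64 CPM (2 UMIs) and 86.9 CPM, with a log2 ratio of 3.22 (1.49 to 6.64). Slc3a2, a chain of amino acid transporters, was at 49.6 CPM and 132 CPM, with a log2 ratio of 1.38 (0.46 to 2.46).

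Of the 32 members of the ATF4 and CHOP list, 21 were scored, and 7 of these were at least 1.5-fold higher (Atf4, Ddit3, Atf5, Trib3, Slc3a2, and the tRNA synthetase genes Sars and Cars). Psat1, an enzyme of serine synthesis, was lower. The median log2 ratio of the scored members was 0.72. Among strict-set cells, 9 of 20 scored members were higher and 0 lower (median 1.91). The median was 1.18 with members at 0 UMIs in control cells set against 3 UMIs. There Ddit3 stood at 11.9 CPM (1 UMI) in control and 185 CPM in TGR cells, and Atf4 at 71.6 CPM and 256 CPM. Trib3 stood at 11.9 CPM (1 UMI) and 114 CPM. Atf5 held 0 UMIs in the 22 control cells against 63 in the 220 TGR cells, 2.08-fold higher with 3 UMIs over the group put in place of 0. Such folds, here and below, leave out counting error in the other library and are no interval limit. The lower end of the exact interval of Atf5 was 0.72 on the log2 scale. Outside the rule Ddit3 was at 13.7 CPM in control cells and 266 CPM in TGR cells. Of the endoplasmic reticulum chaperones, Hspa5 was at 76.4 CPM and 155 CPM in cycle-low cells and at 59.6 CPM and 157 CPM in the strict set. The list of unfolded protein response genes and these chaperones had 2 of 16 scored members higher (Hspa5 and Herpud1) and 0 lower. Its median was −0.16, so the list as a whole was not higher in cycle-low TGR cells. In the strict set 3 of 16 were higher and 0 lower (median 0.47).

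ATF4 binds composite elements often written TGATGNAA. That motif, on either strand, was present in the promoter window (250 bases before to 50 after the RefSeq start) of 4.51% of 27025 genes, and in 8 of 25 list members with a promoter in the table: Trib3, Asns, Chac1, Vldlr, Pck2, Slc7a11, Nupr1 and Gars. Of the members past the 1.5-fold limit, 7 had an entry (not Cars), and 1 of these, Trib3, held it. Ddit3 and Trib3 are shown as the list members with the largest ratios (RefSeq, GRCm38.p6). The Ddit3 promoter lies at chr10:127290543-127290792 on the plus strand, and the Trib3 promoter at chr2:152344061-152344310 on the minus strand. The motif match of Trib3, in capitals as it reads on the gene's strand, lies just after the start, in the third line (chr2:152344031-152344060). Neither promoter holds a match before its start.
Ddit3 promoter: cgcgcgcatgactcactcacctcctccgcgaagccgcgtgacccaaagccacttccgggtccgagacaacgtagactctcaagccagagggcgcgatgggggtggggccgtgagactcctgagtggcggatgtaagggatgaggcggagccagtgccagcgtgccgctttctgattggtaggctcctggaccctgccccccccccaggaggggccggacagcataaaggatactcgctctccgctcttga
Trib3 promoter: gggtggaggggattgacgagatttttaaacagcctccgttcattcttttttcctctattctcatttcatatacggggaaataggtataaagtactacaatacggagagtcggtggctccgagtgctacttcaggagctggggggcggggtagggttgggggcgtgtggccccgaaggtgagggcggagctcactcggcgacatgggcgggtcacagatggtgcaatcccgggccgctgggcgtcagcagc
Trib3 transcript start: agattagctcaggtTTACATCAgccgggcg

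The markers given for non-cycling cells differed in unequal ways between the conditions. Btg1 was at 218 CPM in cycle-low control cells and 522 CPM in matched TGR cells, a log2 ratio of 1.25 (0.81 to 1.73). Pik3ip1 was at 38.2 CPM and 125 CPM, a log2 ratio of 1.66 (0.65 to 2.89). Il7r was at 53.5 CPM and 56.7 CPM, a log2 ratio of 0.08 whose interval of −1.07 to 1.25 leaves room for a difference of over 2-fold either way. Among strict-set cells, Btg1 was at 406 CPM and 491 CPM with an interval of −0.23 to 0.83 on the log2 scale, so that a 2-fold difference lies outside it. Pik3ip1 was there at 59.6 CPM and 124 CPM with an interval of −0.21 to 2.71. In the closer match, however, Btg1 was at 372 CPM and 591 CPM. Its log2 ratio there was 0.66, with an interval of −0.02 to 1.38 that held both 0 and a 2-fold difference. The 48 control cells with more cycle transcripts had 129 CPM of Btg1, and control cells outside the rule 79.8 CPM. Within the TGR library Btg1 was at 326 CPM outside the rule, so that the marker separated cycle-low from other cells less in TGR than in control: the difference of the 2 log2 ratios was −0.77 (−1.23 to −0.31).

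Of the 27 quiescence and FOXO target genes, 20 were scored, 8 were at least 1.5-fold higher in TGR and 1 lower, with a median log2 ratio of 0.89. The higher ones were Btg1, Pik3ip1, Klf2, Klf6, S1pr1, Tsc22d3, Ccng2 and Bnip3l. S1pr1, the receptor that lets lymphocytes leave lymphoid tissue, was at 26.7 CPM in control cells and 83.2 CPM in TGR cells, a log2 ratio of 1.57 (0.36 to 3.11). Tsc22d3, a glucocorticoid-induced leucine zipper gene, was at 19.1 CPM and 98.3 CPM, a log2 ratio of 2.25 (0.96 to 4.10). In the strict set Tsc22d3 was at 35.8 CPM (3 UMIs) and 63.9 CPM, and its interval of −0.79 to 3.16 held 0. Bnip3l, a mitophagy receptor, was at 126 CPM and 234 CPM. The strict set had 4 of 21 higher (Bnip3l, Klf2, Klf6 and S1pr1) and 1 lower, with a median of 0.24. S1pr1 held only 1 UMI in the control cells of that set, against 70 in the TGR cells. The list's median was thus nearer 0 in the strict set than in all cycle-low cells. The closer match put it between these, at 0.51. Of the 20 members scored there, 0 passed the 1.5-fold limit upward and 1 passed it downward. Bnip3l had 10 UMIs in each library of that match, and S1pr1 had 1 in each.

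Txnip, an arrestin that restrains glucose uptake and is induced by glucose, was the lower one. It stood at 68.8 CPM in cycle-low control cells (18 UMIs) and 15.1 CPM in TGR cells (4 UMIs), a log2 ratio of −2.05 (−4.21 to −0.58). Its strict-set levels were 167 CPM and 20.1 CPM, a log2 ratio of −2.99 (−4.16 to −1.92). The 48 control cells with more cycle transcripts had 22.5 CPM, near the TGR level, and control and TGR cells outside the rule had 45.5 CPM and 23.1 CPM. The highest of the 22 control cells held 14.3% of their Txnip UMIs, so no single cell carried the level.

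Btg1 and Txnip went opposite ways and both hold the FOXO core motif GTAAACA, searched on both strands, which 4.05% of all genes' promoter windows and 3 of 23 quiescence list members held (Btg1, Sesn1 and Txnip). Their promoters are shown with the match in capitals (RefSeq, GRCm38.p6, plus strand). The Btg1 promoter lies at chr10:96616751-96617000, with the match on the opposite strand, 204 bases before the start at its first base. The Txnip promoter lies at chr3:96557707-96557956, with the match on the gene's strand, 121 bases before the start.
Btg1 promoter: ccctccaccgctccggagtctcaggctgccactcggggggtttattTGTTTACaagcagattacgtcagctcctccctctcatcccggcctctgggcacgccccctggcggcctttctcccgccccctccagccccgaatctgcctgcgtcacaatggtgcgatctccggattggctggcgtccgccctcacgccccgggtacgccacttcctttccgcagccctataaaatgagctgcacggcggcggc
Txnip promoter: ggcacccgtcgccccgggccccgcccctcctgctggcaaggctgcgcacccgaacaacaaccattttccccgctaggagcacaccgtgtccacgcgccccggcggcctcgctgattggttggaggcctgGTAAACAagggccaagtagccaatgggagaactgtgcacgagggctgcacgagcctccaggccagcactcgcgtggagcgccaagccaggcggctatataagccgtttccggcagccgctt

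Several glycolytic enzyme genes were higher in cycle-low TGR cells. Aldoa, the aldolase of glycolysis, was at 951 CPM in control cells and 2003 CPM in TGR cells, a log2 ratio of 1.07 (0.85 to 1.30), and at 775 CPM and 1913 CPM in the strict set. Gpi1, glucose phosphate isomerase, was at 344 CPM and 866 CPM, a log2 ratio of 1.33 (0.97 to 1.70), and at 406 CPM and 761 CPM in the strict set. Pgk1, phosphoglycerate kinase, was at 22.9 CPM (6 UMIs) and 68.0 CPM (18 UMIs), and in the strict set held 0 UMIs in control and 55 in TGR cells. That was 1.82-fold higher with 3 UMIs in place of 0, and the lower interval end was 0.52 on the log2 scale. Gapdh was at 1994 CPM and 2854 CPM, under the 1.5-fold limit. Of the lower glycolysis and lactate list, 3 of 11 scored members were at least 1.5-fold higher (Aldoa, Pgk1 and Eno1) and 2 lower (Pgam1 and Ldha), with a median of 0.51. The strict set had 4 of 10 higher and 0 lower (median 0.57).

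Nuclear genes of the respiratory chain were lower in cycle-low TGR cells. Of 71 scored members, 36 were at least 1.5-fold lower and 3 higher, with a median log2 ratio of −0.63, and the list summed to 31759 CPM in control cells and 21886 CPM in TGR cells. Ndufb6, a subunit of complex I, was at 306 CPM and 79.4 CPM, a log2 ratio of −1.92 (−2.71 to −1.24). Within the strict set 9 of 71 members were lower and 3 higher (median −0.21), and Ndufb6 was at 179 CPM and 91.1 CPM. The 48 control cells with more cycle transcripts held 34774 CPM of the list, the 22 strict control cells 25359 CPM and the strict TGR cells 21861 CPM. Among the members higher in TGR was Cox6a2, an isoform of a complex IV subunit. It held 0 UMIs in the control cells and 9 in the TGR cells, 2.97-fold higher with 3 UMIs in place of 0. Its strict-set counts, 0 and 30 UMIs, gave 0.992-fold in the same way, and the interval, from −0.40 upward on the log2 scale, held 0. Of the 22 scored genes of the TCA cycle and pyruvate entry, 6 were lower and 0 higher, against 1 and 0 of 19 in the strict set. That 1 was Mdh2, mitochondrial malate dehydrogenase, at 286 CPM in control cells and 161 CPM in TGR cells.

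Transcripts of the proteasome, of tubulin and of cholesterol synthesis were high in the control cells that held more cycle transcripts. Of 37 scored proteasome members, 19 were lower in TGR and 0 higher (median −0.84), whereas in the strict set 3 were lower (Psma2, Psma4 and Psma6) with a median of −0.22. Psmb2, a subunit of the proteasome core, was at 317 CPM in control cells and 94.5 CPM in TGR cells, but at 119 CPM and 131 CPM in the strict set. The 48 other cycle-low control cells had 410 CPM of it. Tuba1b, an alpha tubulin, was at 516 CPM and 83.2 CPM, but at 83.5 CPM and 80.5 CPM in the strict set. Hsp90aa1, a chaperone, was at 447 CPM and 163 CPM, but at 155 CPM and 161 CPM in the strict set. Of the cholesterol synthesis genes 4 of 11 were lower, against 0 of 6 in the strict set, beside the 6.12% of all scored genes that were lower there.

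Some cycle-linked genes were lower in the strict set too, where control cells still held more cycle transcripts. Birc5, which encodes survivin, a passenger protein of mitotic chromosomes, was at 214 CPM in cycle-low control cells and 11.3 CPM (3 UMIs) in TGR cells, and at 83.5 CPM and 9.46 CPM in the strict set. Stmn1, which encodes the microtubule destabiliser stathmin, was at 481 CPM and 49.1 CPM, and at 167 CPM and 28.4 CPM in the strict set. Hmgb2, a chromatin protein of dividing cells, was at 1295 CPM and 200.3 CPM, and at 358 CPM and 212 CPM in the strict set. Of the other G2/M genes, 16 of 24 scored were lower and 1 higher, and 9 of 19 and 1 in the strict set. The other S-phase genes had 22 of 35 members lower and 0 higher, and 7 of 15 and 0 in the strict set. In the closer match the intervals of Birc5 (−3.82 to 0.90), Stmn1 (−3.13 to 0.34) and Hmgb2 (−1.22 to 0.21) all held 0. There 2 of 19 scored G2/M genes were lower and 1 higher, and 0 of 23 scored S-phase genes lower and 1 higher. The sum over these 2 lists, which hold Birc5 and Hmgb2 but not Stmn1, chose the strict set and also paired the cells of the closer match. Values of the listed genes in both thus describe what the choice left, and cannot show whether they differ between the conditions.

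**Figure D3:**
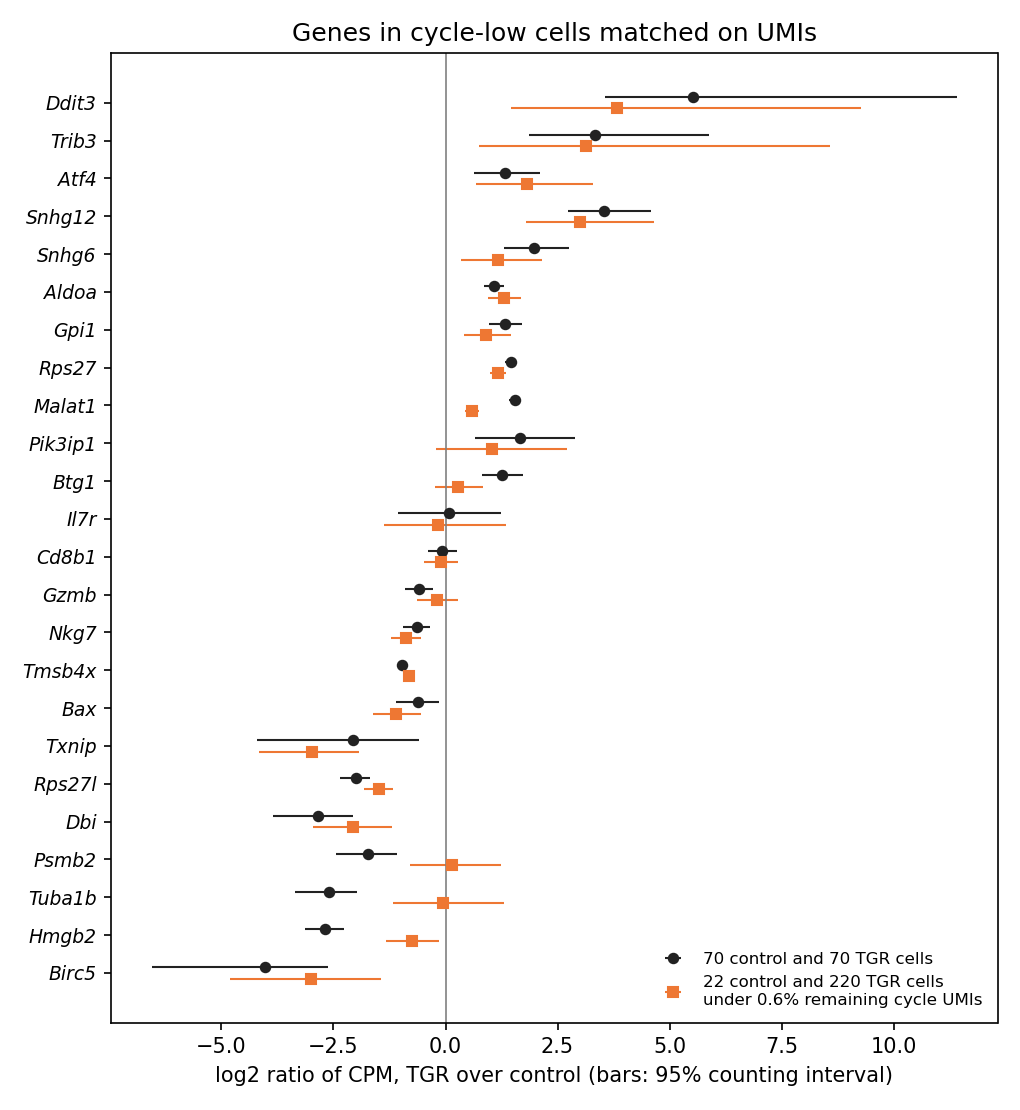
Log2 ratio of CPM, TGR over control (x axis), for 24 genes (y axis) in 70 and 70 cycle-low cells (circles) and in 22 and 220 cells of the strict set (squares), with 95% counting intervals. Ddit3, Trib3, Atf4, Snhg12 and Aldoa lay right of 0 in both, Txnip, Rps27l and Dbi left of 0 in both, and Psmb2 and Tuba1b lay left of 0 in the first and near it in the second.

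Non-coding and ribosomal transcripts also differed. Snhg12, a host gene of small nucleolar RNAs, was at 45.8 CPM in control cells and 552 CPM in TGR cells, a log2 ratio of 3.54 (2.74 to 4.58), and at 59.6 CPM and 486 CPM in the strict set. Snhg6, another such host gene, was at 84.0 CPM and 336 CPM, and at 143 CPM and 325 CPM in the strict set. Epb41l4aos was at 61.1 CPM and 257 CPM, and at 119 CPM and 182 CPM in the strict set, where its interval held 0. All 3 scored members of the snoRNA host list were thus higher in cycle-low TGR cells and 2 of 3 in the strict set.

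Malat1, a nuclear long non-coding RNA, was at 2231 CPM and 6528 CPM in cycle-low cells. In the strict set it was at 4378 CPM and 6550 CPM, a log2 ratio of 0.58 (0.43 to 0.74), under 1.5-fold at this estimate. The highest of the 22 control cells held 16.6% of their Malat1 UMIs. Without that cell the log2 ratio was 0.78 (0.62 to 0.96), past 1.5-fold, and in the closer match it was 0.55 (0.35 to 0.74). Of 83 scored ribosomal protein genes, 11 were at least 1.5-fold higher in TGR and 1 lower, with a median of 0.19. Rps27 was at 2364 CPM and 6535 CPM, a log2 ratio of 1.47 (1.33 to 1.60), and at 2946 CPM and 6625 CPM in the strict set. Its paralogue Rps27l, a p53 target, was the lower one, at 1459 CPM and 363 CPM, and at 1252 CPM and 445 CPM in the strict set. Reads of such close paralogues and of ribosomal pseudogenes could be split between copies by the counting, and these values are uncertain to that extent. In the strict set the median of the ribosomal protein genes was −0.05, with 7 higher and 1 lower.

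The metallothioneins Mt1 and Mt2, which bind zinc and copper, were the 2 scored members of the list of metallothioneins and zinc handling in the strict set, and both were higher there. Mt1 was at 168 CPM and 283 CPM in the matched cells, at 523 CPM over all 762 TGR cells, and at 83.5 CPM and 241 CPM in the strict set. Mt2 was at 22.9 CPM (6 UMIs) and 129 CPM (34 UMIs), and held 0 and 97 UMIs in the strict set. That was 3.21-fold higher with 3 UMIs in place of 0, and the lower interval end was 1.36 on the log2 scale. In the closer match the Mt1 log2 ratio was 0.95, with an interval of −0.24 to 2.33 that held 0. Of the iron handling list, 1 of 3 scored members was higher and 1 lower in the strict set. Fth1, the ferritin heavy chain, was lower, at 1749 CPM and 1142 CPM, while Ftl1, the ferritin light chain, was at 1593 CPM and 2196 CPM. Ftl1 passed the 1.5-fold limit, at 1109 CPM and 2238 CPM, in the strict set. Tmsb4x, which encodes the actin-binding thymosin beta 4, was among the most abundant transcripts and was at 17493 CPM and 8894 CPM, a log2 ratio of −0.98 (−1.05 to −0.90), and at 16234 CPM and 9184 CPM in the strict set. Dbi, an acyl-CoA-binding protein gene, was at 367 CPM and 49.1 CPM, and at 203 CPM and 47.3 CPM in the strict set.

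T cell identity genes differed little. Of 17 scored members of the T cell receptor and CD8 complex list, 1 (Fyn) was at least 1.5-fold higher and 1 (Cd5) lower, with a median of −0.25, and 0 and 0 in the strict set. Cd8b1, a chain of the CD8 co-receptor, was at 611 CPM in control cells and 582 CPM in TGR cells, with an interval of −0.40 to 0.26 on the log2 scale. Bcl2, a survival gene, was at 783 CPM and 847 CPM, and at 1109 CPM and 968 CPM in the strict set. In the closer match, however, Bcl2 was lower in TGR, at 1141 CPM and 579 CPM, a log2 ratio of −0.97 (−1.52 to −0.46). The cytotoxic protease gene Gzmb was at 806 CPM and 533 CPM, a log2 ratio of −0.59 (−0.91 to −0.28). In the strict set it was at 561 CPM and 491 CPM, with an interval of −0.63 to 0.28, and in the closer match the interval was −1.27 to −0.03. Nkg7, a cytotoxic granule protein gene, was at 894 CPM and 575 CPM, a log2 ratio of −0.64 (−0.94 to −0.34), and at 1062 CPM and 571 CPM in the strict set. Cd7, a lymphocyte surface protein gene, was at 7.64 CPM (2 UMIs) and 102 CPM (27 UMIs), a log2 ratio of 3.45 (1.75 to 6.86), and at 23.9 CPM (2 UMIs) and 110 CPM in the strict set.

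Interferon-stimulated genes were more often higher than lower. Of 21 scored members, 7 were at least 1.5-fold higher (Irf7, Rtp4, Xaf1, Samhd1, Slfn1, Gbp2 and Irgm1) and 0 lower, with a median of 0.71, and 3 and 0 of 21 in the strict set. Irf7, a transcription factor of the interferon response, held 0 UMIs in control and 7 in TGR cells, 2.31-fold higher with 3 UMIs in place of 0. Its strict-set counts, 0 and 25 UMIs, gave 0.827-fold in the same way, and the interval, from −0.68 upward on the log2 scale, held 0. Ifitm1, which encodes an interferon-induced membrane protein, went the other way, with 18 UMIs in control and 0 in the matched TGR cells, 6.06-fold lower with 3 UMIs in place of 0. The 18 UMIs lay in 5 of the 70 control cells, 1 of which held 33.3% of them, and strict-set counts were 2 and 2 UMIs with an interval of −7.12 to 0.45. Over all 762 TGR cells it was at 5.82 CPM, and outside the rule at 56.9 CPM in control cells and 2.92 CPM in TGR cells. Jund, an AP-1 subunit gene, was at 275 CPM and 423 CPM in cycle-low cells but at 403 CPM and 291 CPM in cells outside the rule, a difference of the 2 log2 ratios of 1.09 (0.66 to 1.52).

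**Figure D4:**
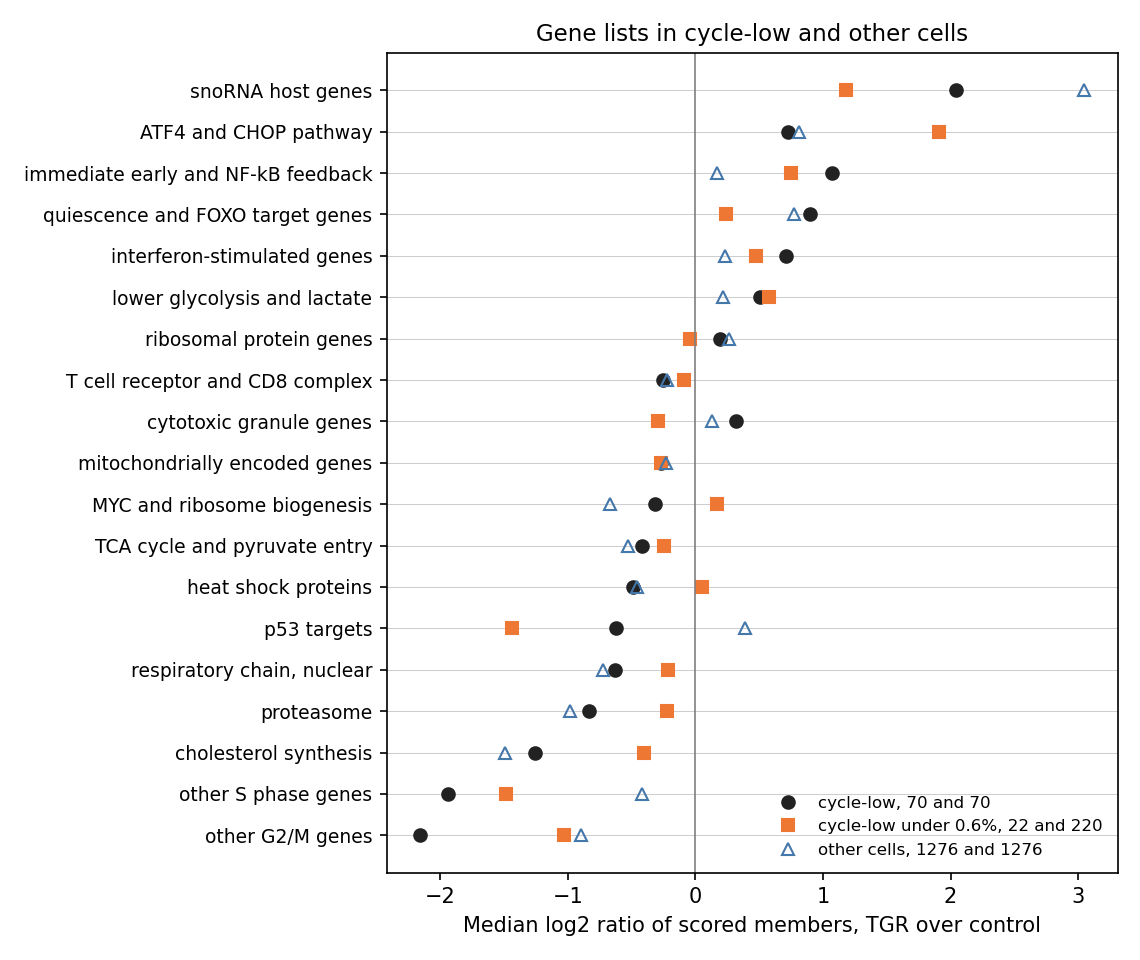
Median log2 ratio of the scored members of 19 gene lists (y axis), TGR over control (x axis), in cycle-low cells (circles), the strict set (squares) and matched cells outside the rule (triangles). The ATF4 and CHOP list lay right of 0 in the 3 comparisons, the proteasome and respiratory chain lists lay nearest 0 in the strict set, and the p53 targets lay at −1.44 there.

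The 22 strict control cells differed in level from the other cycle-low control cells at several genes. Cdkn1a, which encodes the cyclin-dependent kinase inhibitor p21, stood at 143 CPM in them and at 5.62 CPM in the 48 other cycle-low control cells. It stood at 16.6 CPM in the strict TGR cells, a log2 ratio of −3.03 (−4.33 to −1.87). In the closer match it was at 161 CPM (13 UMIs) and 73.9 CPM (6 UMIs), a log2 ratio of −1.06 whose interval of −2.81 to 0.37 held 0. Outside the rule Cdkn1a was at 27.9 CPM in control cells and 61.0 CPM in TGR cells, so that the order of the libraries was the opposite. Over all 70 cycle-low control cells it was at 49.6 CPM against 22.7 CPM in matched TGR cells, with an interval of −2.81 to 0.37 on the log2 scale. The difference between its log2 ratio in cycle-low cells and that outside the rule was −2.19 (−3.56 to −0.83).

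Of the p53 target list, 6 of 10 scored members were lower in TGR in the strict set and 0 higher, with a median of −1.44. They were Bax, Ccng1, Cdkn1a, Rps27l, Trp53inp1 and Zmat3. In the closer match 3 of 10 were lower and 0 higher (median −1.20). In all cycle-low cells 3 of 8 were lower and 1 higher (median −0.62). Bax, a pro-apoptotic gene, was at 367 CPM in control cells and 238 CPM in TGR cells, and at 441 CPM and 205 CPM in the strict set. Bbc3, which encodes the pro-apoptotic protein PUMA and is also a CHOP target, was the higher one, at 34.4 CPM and 90.7 CPM, but was at 95.4 CPM and 74.5 CPM in the strict set.

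Other genes high in the 22 control cells lay outside that list. S100a6, a calcium-binding protein gene, was at 1503 CPM there, 556 CPM in the 48 other cycle-low control cells and 431 CPM in the strict TGR cells. Cd160, a surface receptor gene of cytotoxic cells, was at 83.5 CPM (7 UMIs in 4 cells), 50.6 CPM and 5.92 CPM. The chemokine gene Ccl5 was at 704 CPM, 28.1 CPM and 141 CPM, but 1 of the 22 cells held 59.3% of its UMIs. Without that cell Ccl5 was at 298 CPM, with a log2 ratio of −1.08 (−1.72 to −0.39). Without the highest cell for Cdkn1a that gene was at 112 CPM, and without the highest cell for S100a6 that gene was at 1318 CPM, so their levels did not rest on 1 cell.

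Markers of NK or innate-like lymphocytes went both ways between the strict sets. Their sum was 298 CPM in the 22 control cells and 234 CPM in the strict TGR cells, and 274 CPM and 124 CPM without Cd7. Tyrobp, an adaptor of activating receptors, held 7 UMIs in 2 of the control cells (83.5 CPM) and 6 in 1 of the 220 TGR cells (7.10 CPM). Klrk1, the gene of the receptor NKG2D, which activated CD8 T cells also express, was at 131 CPM and 91.1 CPM, while Klrb1c and Zbtb16 were at 0 in both. Klre1 and Fcer1g were each at 23.9 CPM (2 UMIs in 1 cell) in control, and at 2.37 CPM and 5.92 CPM in TGR. Klra1 held 1 UMI, in control only. Klra7, Klra8, Xcl1 and Ncr1 held 4, 5, 5 and 1 UMIs, in TGR only. Those counts are 4.73, 5.92, 5.92 and 1.18 CPM. In the 22 control cells 3 UMIs make 35.8 CPM, so absence of these 4 genes there was not detectable. At least 2 UMIs of the NK or innate-like markers were present in 6 of the 22 control cells and 43 of the 220 TGR cells. Without those cells, a choice made after seeing the data, S100a6 was at 1181 CPM and 424 CPM, and Nkg7 at 924 CPM and 555 CPM. Ccl5 was then at 360 CPM and 94.1 CPM, Cdkn1a at 120 CPM and 20.9 CPM, and Txnip at 188 CPM and 20.9 CPM, each with an interval below 0. Cd160 was at 17.1 CPM (1 UMI) in these control cells, and its interval of −6.78 to 3.36 held 0.

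**Figure D5:**
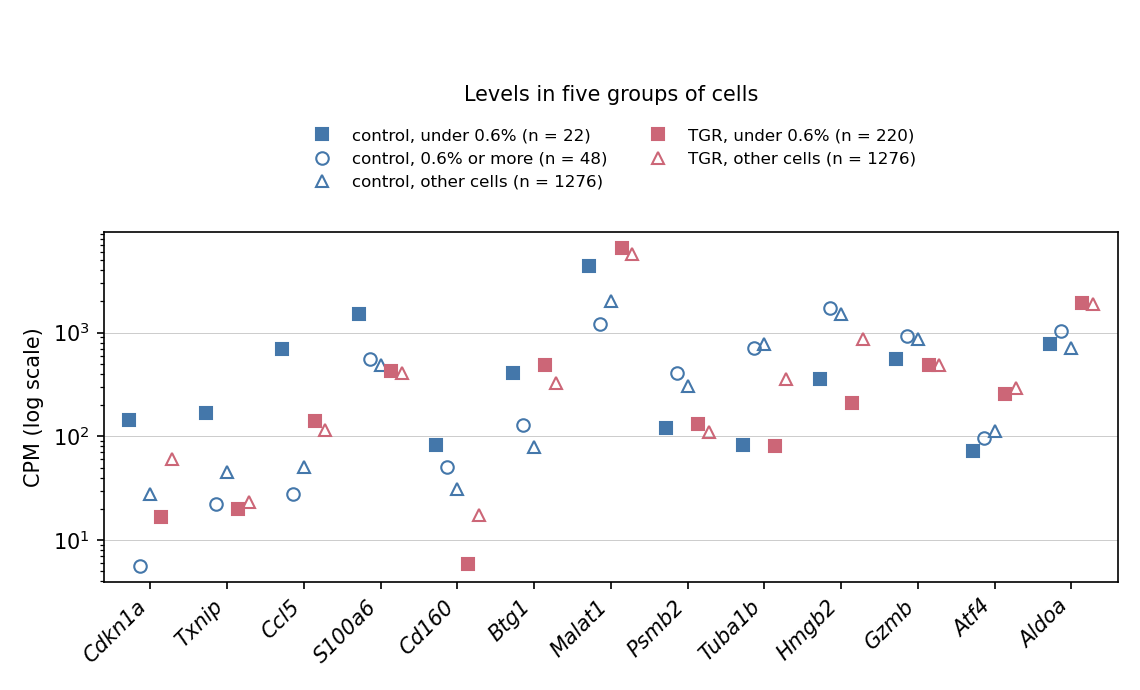
CPM (y axis, log scale) of 13 genes (x axis) in 5 groups of cells: the 22 strict control cells, the 48 other cycle-low control cells, 1276 control cells outside the rule, 220 strict TGR cells and 1276 TGR cells outside the rule. Cdkn1a, Txnip, Ccl5 and S100a6 were highest in the 22 control cells, while Btg1, Psmb2 and Tuba1b lay near the strict TGR level there.

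Cycle-low cells also varied among themselves. Thinned to 3000 UMIs per cell, a gene with no variation beyond sampling has a variance over mean near 1, and Ddit3 stood at 1.24 in TGR cells. Ccl5 had the highest value in both libraries, 21.3 in control and 14.2 in TGR cells. Before thinning, 1 cell held 54.7% of its UMIs in control and 1 cell 19.6% in TGR, so its value leaned on single cells. Actb, the cytoplasmic actin gene, followed in TGR at 11.5 after Mt1 at 12.4, and stood at 8.22 in control. Malat1 stood at 9.23 in control cells and 5.39 in TGR cells. Mt1 stood at 2.38 in control cells, at a level of 157 CPM after thinning against 458 CPM in TGR. Gzmb stood at 2.56 and 2.43, alike in the 2 libraries.

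Within bands of UMIs per cell, the values given here had the same direction as in the matched cells, whereas Pgk1 and S1pr1 turned at 4000 UMIs or more, as given below. In cells from 3000 to below 4000 UMIs Ddit3 was at 5.30 CPM in control cells, the only 1 UMI of all 70, and at 197 CPM in TGR cells. Snhg12 was there at 47.7 CPM and 405 CPM. In cells from 4000 to below 6000 UMIs Snhg12 was at 41.0 CPM and 571 CPM, and Tmsb4x was at 16309 CPM and 8514 CPM. Gzmb was at 572 CPM and 433 CPM in the lower band and at 1408 CPM and 658 CPM in the upper one. No control cell met the rule at 6000 UMIs or more, so the deepest TGR cells had no counterpart.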

How the data were processed

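The deposited files are 2 droplet single-cell RNA matrices of UMI counts per gene and cell barcode (27998 genes), made by the authors with Cell Ranger 2.2 and the mm10 genome, with Seurat 3 also named, per the submitters' processing notes. The labels' protocols give about 3000 recovered cells per library, and 3336 and 2548 barcodes were deposited. Counts were summed over cells, scaled to CPM, and compared as log2 ratios after adding 0.5 UMI scaled to library size. Cells were matched in bins 0.25 wide on log2 UMIs (seed 1, Python 3.11.15, SciPy 1.17.1). The methods were tested on simulated counts. No doublet caller was run. Named genes were, by rule, the 12 highest and 12 lowest ratios at 50 CPM or more, up to 4 members per list, the rule's genes and markers, the largest differences from other cells, and the 10 genes of widest spread per library. The members, the 46 gene lists and the rule were chosen with earlier results of these data known. Klf2, Klf6, Sars and other list members named without values stand for their list's count. No batch is given in the labels, and with 1 library per condition library and glucose cannot be told apart. TMM (edgeR 4.0.16) and DESeq2 1.42.0 size factors served as other scalings. Promoters came from a RefSeq table (GRCm38.p6).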

Additional observations from a re-analysis of the deposited data

How the results depend on the processing

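No paired analysis was possible because each condition is 1 library with no replicate number. The 18 planned and 4 added alternatives (several TGR cells per control cell, both limits on remaining cycle transcripts, no shared barcodes) were run on the matched cycle-low cells, the added ones chosen after seeing the data. A further one, without cells holding NK or innate-like markers, was run on genes high in the strict control cells, and the interval of Cd160 then held 0. The 203 genes higher and 419 lower became 47 and 92 with 0 S-phase UMIs (17 cells per library), 67 and 178 at 4000 UMIs or more (16 cells per library), 59 and 67 when matched also on remaining cycle transcripts (21 cells per library), and 98 and 171 in the strict set. Fewer cells alone lower such counts. With totals without ribosomal protein and mitochondrially encoded genes 316 were higher, and at 50 CPM or more 127. The other alternatives left both counts within 1.5 times. The control share of cycle-low cells became 7.13% after thinning, 0.763% with 0 S-phase UMIs, 1.01% at 4000 UMIs and 2.38% in cells matched on UMIs, and the TGR share 43.2%, 18.7%, 26.4% and 37.9%. Directions that turned were as follows, and the cause was not tested. Matched also on remaining cycle transcripts, the log2 ratio was −0.93 for Bbc3, 0.49 for Hsp90aa1, 0.30 for Psmb2 and 0.43 for Tuba1b, each with an interval that held 0. For Bnip3l (−0.0097) and S1pr1 (−0.0068) it was near 0, as each held equal UMIs in the 2 libraries (10 and 1). With 0 S-phase UMIs the log2 ratio was −1.37 for Bbc3. At 4000 UMIs or more it was −0.022 for Pgk1 and S1pr1, again near 0. In the strict set it was −0.35 for Bbc3, 0.053 for Hsp90aa1 and 0.14 for Psmb2. Members higher minus lower turned to 1 for the other S-phase, tubulin and translation factor lists and −1 for the quiescence list when matched also on remaining cycle transcripts, to 1 for heat shock proteins and translation factors in the strict set, to 1 for the MYC list and 2 for translation factors with 0 S-phase UMIs, and to 1 for translation factors at 4000 UMIs or more. A gene needed about 11.5 CPM for 3 UMIs in the 70 control cells and 35.8 CPM in the strict 22, so absence below these levels was not detectable.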
